A study of Mus musculus with 6 samples.

Results

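Liver endothelium was followed through 10 marker genes, 7 of the sinusoidal endothelium (*Stab1*, *Stab2*, *Lyve1*, *Clec4g*, *Oit3*, *Dnase1l3* and *Gpr182*) and 3 of capillaries or larger vessels (*Cd34*, *Plvap* and *Vwf*). They were chosen by symbol out of 49671 genes in the count table. All 10 were matched to an Ensembl identifier and all 10 passed the filter on low counts. RNA was sequenced from liver tissue of 6 male C57BL/6J mice, 3 controls, labelled WT and taken from the study's methods to be SHMT2 fl/fl mice with the floxed *Shmt2* allele and no deletion, and 3 SHMT2 HKO mice, labelled KO, in which Albumin-Cre deletes the floxed gene in hepatocytes. The endothelial cells were thus not the cells targeted by the deletion. All 6 mice, controls included, were on a high-fat, high-fructose, high-cholesterol diet (AMLN) from 4 weeks of age for 18 weeks. Chow-fed livers were not analysed here, and livers were taken at 22 weeks after a fast.

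Sinusoidal endothelial cells line the blood channels of the liver lobule. They lack a continuous basement membrane, are perforated by fenestrae, and clear waste molecules from blood through scavenger receptors. In chronic liver injury these cells can lose fenestrae and scavenger receptors and take on features of ordinary capillaries, such as CD34 on the surface and a collagen IV basement membrane, a change called capillarization. Several of the markers are shared with other cells. Stabilin-1 is also made by macrophages, LYVE1 by lymphatic vessels and CD34 by fibroblasts and blood progenitors. In bulk RNA, fewer cells of a type and less RNA per cell cannot be told apart.

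Counts on genes ranged from 23090837 to 34089722 per mouse, and 3 counts, taken as the floor, were 0.0734 to 0.152 CPM, which are a gene's counts scaled to a fixed library size. As a check of the deletion, *Shmt2* had 2897 to 3866 counts in controls and 491 to 587 in SHMT2 HKO livers (log2 fold change -2.04). CPM were computed with library sizes scaled by edgeR's TMM method, whose factors were 1.13 to 1.21 in control mice and 0.802 to 0.984 in SHMT2 HKO mice. This scaling enters each fold change, because the median over all genes shifts by -0.42 on the log2 scale without it, and with scaling to the added ERCC spike-in RNAs by -0.72. For this reason, ratios of 2 markers within a mouse, which no scaling of the library can change, are given beside the fold changes.

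The members that moved most in each direction were *Cd34* and *Clec4g*, and the RefSeq promoters of both (GRCm38.p6, 300 bases, most of them before the transcription start, 5′ to 3′ on the strand of the gene) are printed because the results turn on them. The window of *Cd34* is chr1:194938571-194938870 on the plus strand, and that of *Clec4g* is chr8:3720602-3720901 on the minus strand. The capitals mark the only match found in either window, TTTATA, which is the TATA box TATAAA read on the other strand and begins 31 bases before the start of *Clec4g*.
Cd34: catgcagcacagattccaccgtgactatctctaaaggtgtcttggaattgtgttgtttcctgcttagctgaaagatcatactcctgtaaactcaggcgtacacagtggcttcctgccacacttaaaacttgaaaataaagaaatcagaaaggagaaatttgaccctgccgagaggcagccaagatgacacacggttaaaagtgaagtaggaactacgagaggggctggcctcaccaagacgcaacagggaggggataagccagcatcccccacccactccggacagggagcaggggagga
Clec4g: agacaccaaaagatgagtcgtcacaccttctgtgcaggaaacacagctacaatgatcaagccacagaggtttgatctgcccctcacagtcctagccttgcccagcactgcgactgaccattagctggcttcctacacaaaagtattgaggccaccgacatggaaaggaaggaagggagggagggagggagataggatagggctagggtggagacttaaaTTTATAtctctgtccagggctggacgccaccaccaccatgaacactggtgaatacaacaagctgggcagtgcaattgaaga
Motifs were searched on both strands, and their frequency is given over 32851 promoters of this length. The TATA box letters were in 13.6% of them. The ETS motif, CCGGAAG, was in 8.86%, and the GATA motif, AGATAA, in 11.2%. The SOX motif, AACAAAG, was in 5.85%, the AP-1 motif, TGAGTCA, in 5.20% and the E-box, CACGTG, in 7.15%. The GC content was 50.0% for *Cd34* and 51.0% for *Clec4g*, against a median of 52.7% over all promoters. The windows held 7 and 4 CpG sites, where the median promoter holds 7. *Stab1* and *Stab2* are the other members with an entry in this table, and neither window held any of the 6 motifs.

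**Figure D1:**
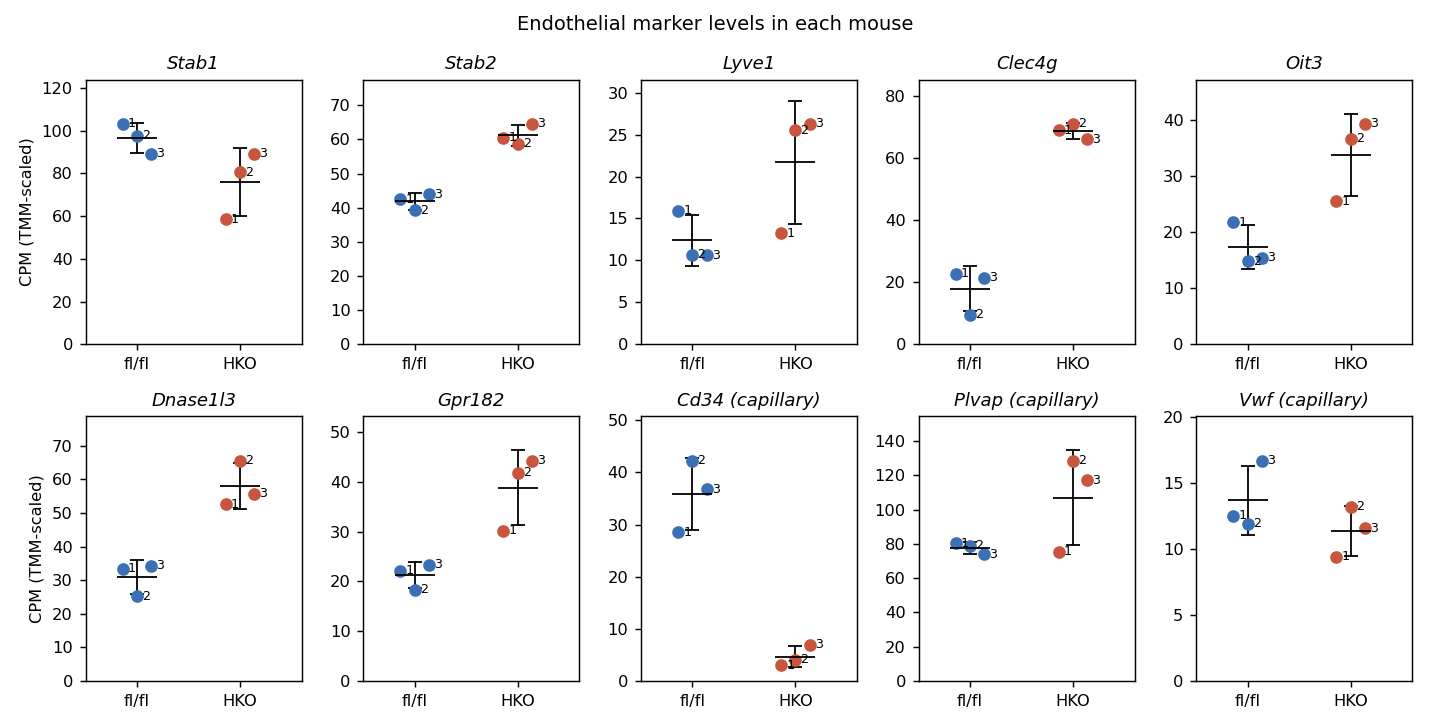
TMM-scaled CPM (linear axes from 0) of the 10 endothelial markers in 3 SHMT2 fl/fl (blue) and 3 SHMT2 HKO (red) mice, numbered 1 to 3, with the mean (long line) and SD (error bar). *Cd34* is at 28.6 to 42.3 CPM in control mice and 3.01 to 6.93 in SHMT2 HKO mice, while *Clec4g* is at 9.56 to 22.8 and 66.1 to 71.1.

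The comparison of genotypes asks whether livers that lack SHMT2 in hepatocytes differ in sinusoidal and capillary endothelial transcripts on this diet. Of the 7 sinusoidal markers, 5 rose in SHMT2 HKO livers (*Clec4g*, *Oit3*, *Dnase1l3*, *Gpr182* and *Stab2*), and *Lyve1* and *Stab1* did not pass the test. Of the 3 capillary or large-vessel markers, *Cd34* fell about 7.64-fold, and *Plvap* and *Vwf* did not pass. Genes were tested by the quasi-likelihood method of edgeR and called at a Benjamini-Hochberg adjusted p under 0.05, which of all 16089 genes 12.5% reached in the higher and 16.5% in the lower direction, 29.0% in all. The median log2 fold change was 0.87 over the 7 sinusoidal markers, -0.27 over the 3 others, and 0.03 over all genes tested.

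*Clec4g* (ENSMUSG00000074491, chr8:3707064-3720651) encodes LSECtin, a C-type lectin of sinusoidal endothelial cells. Control mice 1, 2 and 3 had 931, 254 and 820 counts and SHMT2 HKO mice 1, 2 and 3 had 1625, 1404 and 1679, or 22.8, 9.56 and 21.4 CPM against 69.0, 71.1 and 66.1. The SHMT2 HKO mice were close to each other and all above the controls, of which mouse 2 was lowest. The log2 fold change was 1.93 (standard error 0.29, edgeR adjusted p = 0.00320), a 3.82-fold rise. It stayed between 1.64 and 2.14 when any mouse was left out. Without TMM the rise was 2.84-fold (edgeR adjusted p = 0.00724), and with ERCC scaling the log2 fold change was 1.16, which did not pass (edgeR adjusted p = 0.104).

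*Stab2* (ENSMUSG00000035459, chr10:86841198-87008025) encodes stabilin-2, the main sinusoidal scavenger receptor for hyaluronan. It had 42.5, 39.2 and 43.9 CPM in control mice and 60.5, 58.7 and 64.6 in SHMT2 HKO mice. The spread within each genotype was small and the groups did not overlap. The log2 difference was 0.55 (standard error 0.11, edgeR adjusted p = 0.00781), but 0.13 without TMM (adjusted p = 0.526) and -0.15 with ERCC scaling (adjusted p = 0.827), so its rise holds relative to other genes and not under every scaling.

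Its paralog *Stab1* (ENSMUSG00000042286, chr14:31139013-31168641), a scavenger receptor found on macrophages too, had 103, 97.7 and 89.3 CPM in control mice and 58.6, 80.5 and 89.3 in SHMT2 HKO mice, where mouse 1 was lowest and mouse 3 was level with the lowest control. The log2 fold change was -0.35 (standard error 0.17, edgeR adjusted p = 0.154). Without TMM it was -0.76 and passed (adjusted p = 0.0284).

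*Oit3* (ENSMUSG00000009654, chr10:59422958-59441778) encodes a secreted protein with a zona pellucida domain. Its CPM were 21.7, 14.7 and 15.4 in control mice and 25.4, 36.6 and 39.2 in SHMT2 HKO mice, a log2 fold change of 0.96 (standard error 0.21, edgeR adjusted p = 0.0120). The groups did not overlap, but the call was lost without control mouse 2 (adjusted p = 0.0512) or mouse 3 (0.0571). *Dnase1l3* (ENSMUSG00000025279, chr14:7964533-7994573), a secreted nuclease that digests DNA in plasma, had 33.4, 25.2 and 34.3 CPM against 52.6, 65.6 and 55.7. It rose by a log2 fold change of 0.90 (standard error 0.15, edgeR adjusted p = 0.00468) with no overlap between genotypes. *Gpr182* (ENSMUSG00000058396, chr10:127747276-127751732), an atypical chemokine receptor of endothelium, had 22.1, 18.3 and 23.4 CPM against 30.2, 41.8 and 44.3, a log2 fold change of 0.87 (standard error 0.17, edgeR adjusted p = 0.00830). Each SHMT2 HKO mouse was above each control for these 3 genes. Their log2 fold changes remained positive without TMM (0.46 to 0.55) and with ERCC scaling (0.16 to 0.31), where none passed (adjusted p of 0.0610 to 0.138 and of 0.657 to 0.813).

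*Lyve1* (ENSMUSG00000030787, chr7:110850607-110863239) encodes a hyaluronan receptor. It had 15.9, 10.6 and 10.6 CPM in control mice and 13.2, 25.5 and 26.3 in SHMT2 HKO mice, so that SHMT2 HKO mouse 1 lay within the controls. The log2 fold change was 0.80 (standard error 0.28, edgeR adjusted p = 0.0643). Without SHMT2 HKO mouse 1 it was 1.06 (adjusted p = 0.00480), and DESeq2 called it with all mice (adjusted p = 0.0228).

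*Cd34* (ENSMUSG00000016494, chr1:194938819-194961279) encodes a sialomucin of capillary endothelium that normal sinusoidal cells carry little of. Control mice 1, 2 and 3 had 1168, 1124 and 1408 counts and SHMT2 HKO mice 1, 2 and 3 had 71, 80 and 176, or 28.6, 42.3 and 36.7 CPM against 3.01, 4.05 and 6.93. The lowest control was above the highest SHMT2 HKO mouse by more than the range within either genotype. Its fall was -2.93 on the log2 scale (standard error 0.30, edgeR adjusted p = 0.00111), and 175 of the genes that passed the test, itself included, fell at least as far. It passed in each of the 15 alternatives tried, with a log2 fold change from -3.44 with ERCC scaling to -2.69 without SHMT2 HKO mouse 1.

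The other two vessel markers did not pass the test. *Plvap* (ENSMUSG00000034845, chr8:71497765-71511752), whose protein forms the diaphragms of fenestrae and caveolae, had 80.4, 78.9 and 73.8 CPM in control mice and 75.4, 129 and 117 in SHMT2 HKO mice. SHMT2 HKO mouse 1 was at the level of the controls and the other two were above them, with a log2 fold change of 0.46 (standard error 0.19, edgeR adjusted p = 0.106). Without SHMT2 HKO mouse 1 it was 0.66 and passed (adjusted p = 0.00565), whereas ERCC scaling gave -0.19 (adjusted p = 0.760). *Vwf* (ENSMUSG00000001930, chr6:125546774-125686679), which encodes von Willebrand factor of larger vessels and of megakaryocytes, had 12.5, 11.9 and 16.7 CPM against 9.42, 13.2 and 11.6. The genotypes overlapped, at a log2 fold change of -0.27 (standard error 0.19, edgeR adjusted p = 0.325). Without TMM it was -0.69 (adjusted p = 0.0375).

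Of the 10 markers, 7 had no overlap between genotypes, 5 of them higher and 2 lower in SHMT2 HKO mice, *Stab1* by a narrow gap. This held for 46.9% of all genes tested, 21.9% in the higher and 25.0% in the lower direction. SHMT2 HKO mouse 1 was the lowest of its group for 8 of the 10. Exons of *Stab1* overlap those of *Nt5dc2* by 112 bp and exons of *Gpr182* those of *Zbtb39* by 74 bp. Exons of *Stab2*, *Clec4g* and *Cd34* overlap antisense genes by 141 to 148 bp, and since no use of strand is stated, reads in these stretches could belong to either gene. Over all 6 mice the antisense genes held 39, 62 and 68 counts, *Nt5dc2* 2868 and *Zbtb39* 2415.

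**Figure D2:**
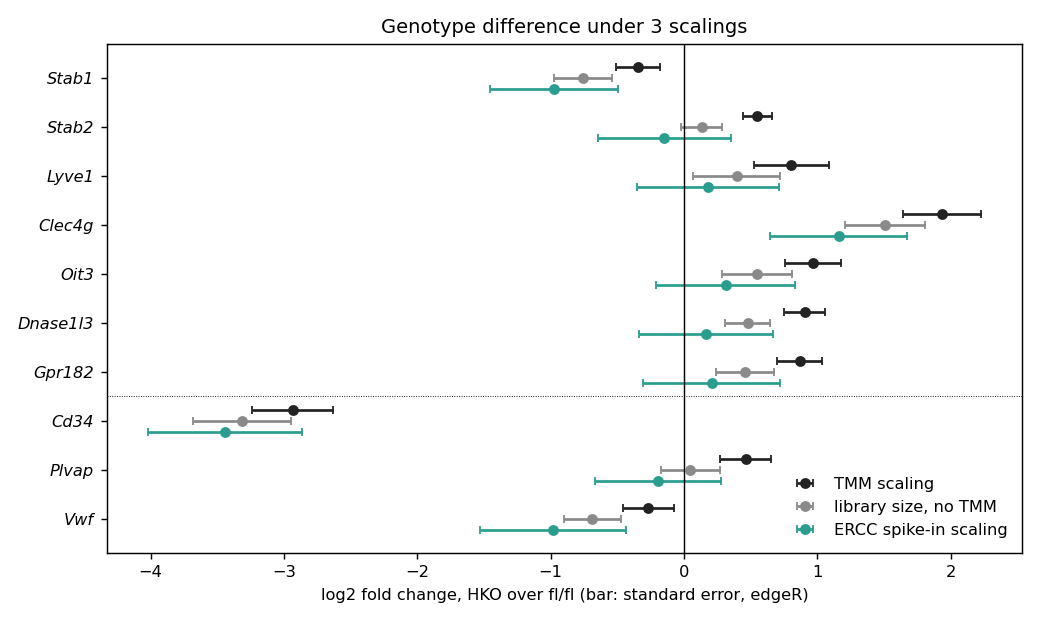
Log2 fold change (SHMT2 HKO over SHMT2 fl/fl) of each marker with its standard error under TMM scaling, library size alone and ERCC scaling, with the vessel markers under the dotted line. *Cd34* stays between -3.44 and -2.93 and *Clec4g* between 1.16 and 1.93, while *Stab2* and *Plvap* change sign with ERCC scaling.

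Per kilobase of exon, which allows genes to be compared with each other, *Plvap* had the highest level in both genotypes, with 39.1 ± 1.75 CPM per kb (SD, n = 3 mice) in control and 53.8 ± 14.1 (SD, n = 3) in SHMT2 HKO livers. In control livers, *Stab1* (9.41 ± 0.683 CPM per kb), *Clec4g* (7.27 ± 2.95), *Oit3* (6.20 ± 1.38), *Dnase1l3* (6.01 ± 0.970), *Gpr182* (5.37 ± 0.669), *Cd34* (4.92 ± 0.947), *Stab2* (4.78 ± 0.277) and *Lyve1* (4.24 ± 1.05) followed (SD, n = 3 each). Neighbours in this order from *Stab1* to *Lyve1* overlapped within their SDs. *Vwf* was lowest at 0.854 ± 0.163 (SD, n = 3). In SHMT2 HKO livers, *Clec4g* held the second place with 27.9 ± 1.02 CPM per kb (SD, n = 3), apart from *Oit3* at 12.1 ± 2.63 (SD, n = 3) and *Dnase1l3* at 11.3 ± 1.32 (SD, n = 3). *Gpr182*, *Lyve1*, *Stab1* and *Stab2* lay between 7.0 and 9.80 CPM per kb and overlapped with their neighbours. *Cd34* was last at 0.640 ± 0.278 (SD, n = 3), level with *Vwf* at 0.710 ± 0.118 (SD, n = 3). The lengths are those of all annotated exons of a gene together, so levels of genes with long alternative exons are understated.

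Ratios of counts within a mouse set the markers against each other without any scaling. For each *Stab2* count, control mice 1, 2 and 3 had 0.672, 1.08 and 0.836 *Cd34* counts, and SHMT2 HKO mice 0.0498, 0.0690 and 0.107. The mean log2 ratio was -0.24 ± 0.341 (SD, n = 3) in controls and -3.80 ± 0.555 (SD, n = 3) in SHMT2 HKO mice, a difference of -3.56 or 11.8-fold (two-sided exact permutation p = 0.1, which is the lowest value 3 mice against 3 can reach). For *Vwf* the ratio was 0.295, 0.304 and 0.381 against 0.156, 0.225 and 0.179, a difference of -0.81 on the log2 scale with no overlap (exact permutation p = 0.1). For *Plvap* it was 1.89, 2.01 and 1.68 against 1.25, 2.19 and 1.81, and the genotypes overlapped (difference of -0.12, exact permutation p = 0.8). Of these ratios, only that of *Plvap* overlapped between genotypes. *Stab2* itself was higher in each SHMT2 HKO mouse than in each control, whereas *Vwf* overlapped in CPM. How many of all genes would not overlap as a ratio to *Stab2* was not counted, so the lack of overlap cannot be weighed against them.

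The sinusoidal markers also differed among themselves, in 2 ratios chosen after their values were seen. *Clec4g* counts per *Stab2* count were 0.536, 0.244 and 0.487 in control mice and 1.14, 1.21 and 1.02 in SHMT2 HKO mice, a difference of 1.49 on the log2 scale. *Stab1* counts per *Stab2* count were 2.43, 2.49 and 2.03 against 0.968, 1.37 and 1.38, a difference of -0.92. Neither ratio overlapped between genotypes (exact permutation p = 0.1 for each). Adjusted over the 5 ratios, these 2 included, the exact permutation p was 0.125 for all but that of *Plvap*, at 0.8.

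The mean log2 CPM of the 3 vessel markers minus that of the 7 sinusoidal markers was -0.000479, 0.62 and 0.39 in control mice 1, 2 and 3. In SHMT2 HKO mice 1, 2 and 3 it was -1.58, -1.41 and -1.28. The groups were apart, with a difference of -1.76 between their means, and of the 3 vessel markers only *Cd34* passed the test by itself. The mean of the vessel markers differed by -0.94 and that of the sinusoidal markers by 0.82. The fall of the vessel mean came mostly from *Cd34* (log2 fold change -2.93), since *Plvap* was at 0.46 and *Vwf* at -0.27. It is thus not a shift of the vessel markers as a class. With summed counts in place of mean logs, where the abundant *Plvap* and *Stab1* weigh most, the difference was -0.67.

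**Figure D3:**
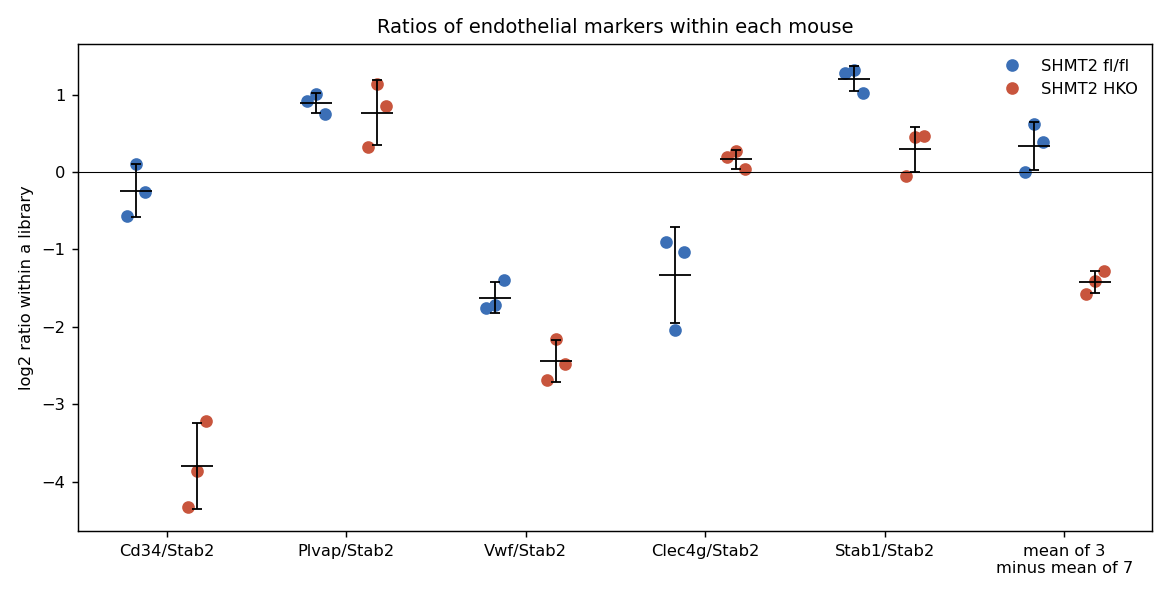
Log2 ratios within each library for 3 SHMT2 fl/fl (blue) and 3 SHMT2 HKO (red) mice, with mean and SD, for 5 pairs of markers and for the mean log2 CPM of the 3 vessel markers minus that of the 7 sinusoidal markers. Every ratio but *Plvap* to *Stab2* is free of overlap between genotypes. *Stab2* itself does not overlap in CPM.

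The 18 genes of a pan-endothelial list, which includes *Pecam1* and the cadherin gene *Cdh5*, were taken as a reference. In edgeR's test 6 fell, among them *Ramp2* (log2 fold change -1.05), *Fli1* (-0.98), *Tie1* (-0.57) and *Egfl7* (-0.45), and 12 did not pass, with a list median of -0.28. None of the 18 rose (3 were higher at an unadjusted p under 0.05), but DESeq2 called 3 higher and 7 lower. By edgeR, 11 fell without TMM and 3 with ERCC scaling. Of all 16089 genes, 4923 fell without TMM and 2759 with ERCC scaling, against 2651 with TMM. The 6 calls were reduced to 3, 2 and 3 without control mouse 1, 2 or 3, and without SHMT2 HKO mouse 1 there were 5 lower and 2 higher. *Pecam1* itself was at 34.6 CPM in control and 29.3 in SHMT2 HKO livers (edgeR adjusted p = 0.261). The summed level of the list was 522 to 564 CPM in control and 408 to 513 in SHMT2 HKO mice, with SHMT2 HKO mouse 1 lowest.

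Set against the mean log2 CPM of these 18 genes in the same mouse, a measure added after the data were seen, 8 of the 10 markers did not overlap between genotypes, of which 7 were higher in SHMT2 HKO mice and 1 lower. On this measure 56.7% of all genes tested did not overlap, 40.2% in the higher and 16.5% in the lower direction. The reference itself was lower in every SHMT2 HKO mouse, with a mean log2 CPM of 3.96 to 4.25 against 4.42 to 4.45, and *Lyve1* and *Plvap*, which overlapped in CPM, did not overlap here. *Clec4g* was higher by 2.33 on the log2 scale in SHMT2 HKO mice, *Oit3* by 1.26, *Dnase1l3* by 1.21, *Gpr182* by 1.15, *Lyve1* by 1.06, *Stab2* by 0.84 and *Plvap* by 0.72. *Cd34* was lower by a log2 difference of -2.70. *Stab1* (-0.07) and *Vwf* (0.032) were close to 0 and overlapped between genotypes. Each of the 8 had an exact permutation p of 0.1 (0.125 adjusted over the 10 markers). With 3 mice against 3, lack of overlap alone sets this value, so it adds nothing to it.

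Other genes of both vessel types were taken from lists compiled from general knowledge. Of 12 further sinusoidal genes, *Cd55*, a complement inhibitor, rose (log2 fold change 0.95, edgeR adjusted p = 0.0391) and 11 did not pass, with a median of 0.23, which was -0.17 without TMM and -0.42 with ERCC scaling. Without TMM none of the 12 rose and 2 fell, and with upper-quartile normalization or ERCC scaling none passed by edgeR. At an unadjusted p under 0.05, 3 were higher and 1 lower with upper-quartile normalization, and 1 was lower with ERCC scaling. DESeq2 with its own size factors called 3 higher. The abundant *Ctsl* (log2 fold change -0.26), *Maf* (-0.04) and *Ehd3* (0.34) were among these 11. The single call was lost without any 1 of control mice 1, 2 and 3 or SHMT2 HKO mouse 3, while 2 genes passed without SHMT2 HKO mouse 1. Of 8 angiocrine genes, whose products signal from sinusoidal endothelium or neighbouring cells, *Bmp6*, which drives hepcidin, fell (log2 fold change -0.97, edgeR adjusted p = 0.0251) and 7 did not pass, *Bmp2* among them at 0.67 (adjusted p = 0.0509). The call of *Bmp6* was lost without control mouse 1 or mouse 2, and 1 gene of the list rose without control mouse 1 or SHMT2 HKO mouse 1.

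Of 21 further capillary and large-vessel genes tested, 8 fell and 13 did not pass, with a median log2 fold change of -0.85. Without TMM 12 fell and with ERCC scaling 9, where 4923 and 2759 of all 16089 genes fell, against 2651 with TMM. *Aplnr*, the apelin receptor, had a log2 fold change of -3.66 with 103, 55 and 38 counts in control and 5, 0 and 5 in SHMT2 HKO mice, and *Ly6c1*, a surface antigen of capillaries and monocytes, one of -3.58, with 8.24, 14.9 and 12.8 CPM in control and 1.83, 0.456 and 0.669 CPM in SHMT2 HKO mice. The counts of *Ly6c1* and *Ly6a* are uncertain, since close paralogs can share reads with them. *Ly6a* (log2 fold change -2.13), *Cav1* (-1.82), *Emcn* (-1.31) and *Efnb2* (-0.94) fell as well. The basement membrane collagen genes *Col4a1* and *Col4a2*, which stellate cells express too, fell (-1.31 and -1.59). By contrast, *Aqp1* (log2 fold change -0.03), *Gja4* (-0.00378) and *Gpihbp1* (-0.11) did not pass. The summed level of this list was 758 to 863 CPM in control and 341 to 481 in SHMT2 HKO mice, with no overlap. Much of this fall came from *Col4a1* (control mean of 228 against 91.7 CPM) and *Col4a2* (166 against 55.0), while *Aqp1* was level (100 against 98.3). The sum is thus not a measure of capillary transcripts alone. Of 6 lymphatic genes tested, *Pdpn* (-3.35) and *Mmrn1* (-2.12) fell and *Reln*, which stellate cells also express, rose (0.97). The rise of *Reln* did not pass without TMM or with ERCC scaling, and 1 of the 2 falls was lost without control mouse 3. The lymphatic marker *Ccl21a* was at 0 counts in all 6 mice under both of its identifiers. The summed level of the lymphatic list was 172 to 204 CPM in control and 162 to 249 in SHMT2 HKO mice. *Prox1*, which did not pass, held most of it, at 92.0 to 125 and 90.7 to 142 CPM, so the sum says little of the other genes. Which liver cells the counts of *Prox1* and *Pdpn* came from was not tested, so they are not levels of lymphatic endothelium alone.

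**Figure D4:**
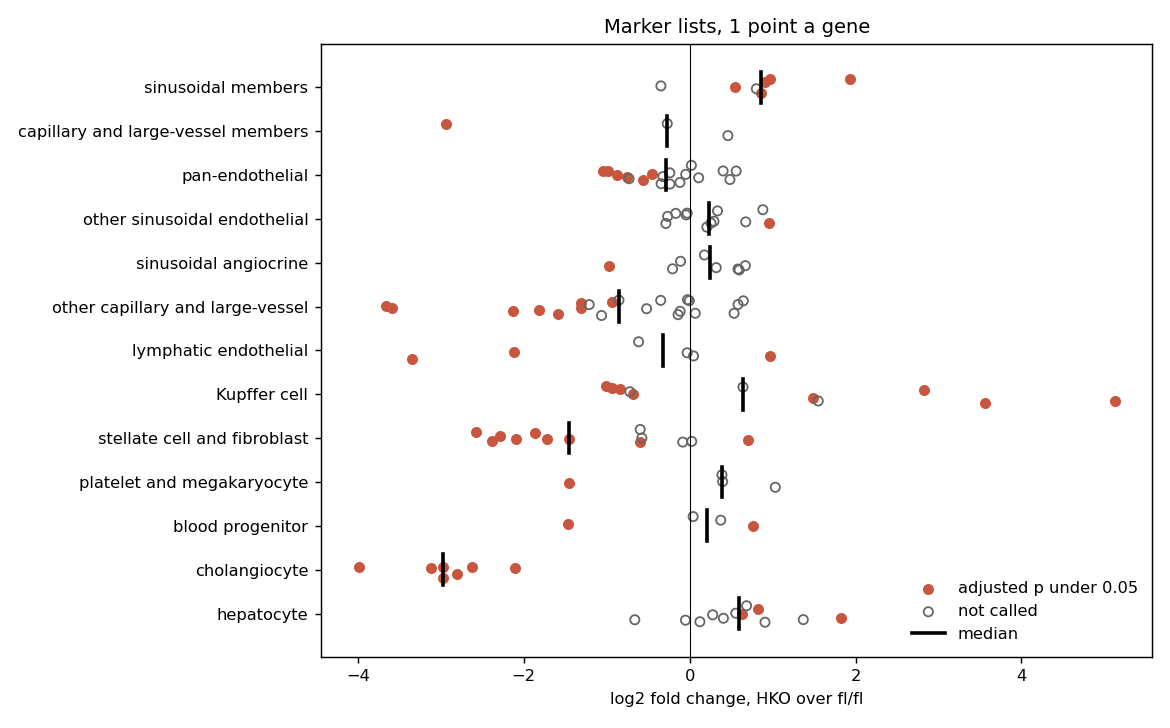
Log2 fold change (SHMT2 HKO over SHMT2 fl/fl, edgeR with TMM scaling) of each tested gene of 13 marker lists, filled where the adjusted p was under 0.05, with the median of each list as a bar. The sinusoidal markers have a median of 0.87, and the further capillary and large-vessel genes one of -0.85, which are 0.18 and -1.44 with ERCC scaling.

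Markers of other cell types, some of which can carry these transcripts, moved as well. Of 13 stellate cell and fibroblast genes, 8 fell and 1 rose, and their summed level was 1649 to 1743 CPM in control and 518 to 1116 in SHMT2 HKO mice. *Pi16* and *Lum* fell (log2 fold changes of -2.57 and -2.38), as did the muscle filament gene *Des* (-0.60), whereas *Lrat*, the retinoid-storing enzyme of stellate cells, had a log2 fold change of 0.03. The extracellular matrix gene *Ecm1* rose (0.70), which did not pass without TMM, with ERCC scaling or without control mouse 3. All 7 cholangiocyte genes fell (summed level of 971 to 1209 against 130 to 248 CPM), among them *Epcam* (-3.12), the keratin gene *Krt19* (-2.97), *Spp1* (-2.62) and *Sox9* (-2.11). *Spp1* alone held most of this sum, at 792 to 944 against 104 to 215 CPM. Of 11 Kupffer cell genes, 4 rose and 4 fell (summed level of 593 to 756 against 563 to 699 CPM). The scavenger receptor gene *Cd163* (5.12), *Timd4* (3.57) and the lectin gene *Clec4f* (2.83) rose, and the complement genes *C1qa* (-1.01) and *C1qb* (-0.94) fell. Of 4 platelet and megakaryocyte genes tested, *Pf4* fell by 1.45, a call lost without control mouse 3, and *Itga2b* was at 0.40 and did not pass, at a summed level of the list of 7.79 to 9.24 against 7.43 to 9.76 CPM. Of 4 blood progenitor genes tested, *Hlf* rose (0.76) and *Flt3* fell (-1.47), and the summed level was 45.5 to 52.4 against 71.0 to 76.5 CPM. Most of this sum was *Hlf*, at 34.0 to 39.4 against 60.8 to 63.2 CPM. *Hlf* is also expressed in hepatocytes, and its call was lost without TMM and with ERCC scaling. That of *Flt3* was lost without any 1 of control mice 1, 2 and 3 or SHMT2 HKO mouse 2. Of 12 hepatocyte genes, *Cyp2e1* (1.82), *Ttr* (0.82) and *Apob* (0.63) rose and 9 did not pass, albumin (*Alb*, 0.56) among them, at a summed level of 58908 to 71965 against 75124 to 113510 CPM. Without TMM and with ERCC scaling 1 rose and 1 fell. A single gene rose without control mouse 1, 2 or 3 or SHMT2 HKO mouse 2, and with the replicate block, while 6 rose without SHMT2 HKO mouse 3, and DESeq2 called 6 higher and 1 lower. In none of these lists was a gene at 0 in all mice. The part of these cells in the levels of *Cd34*, *Stab1*, *Lyve1* and *Vwf* was not tested.

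The tested genes closest in pattern to the mean of the 7 sinusoidal markers were *Plin2*, *Hykk*, *Azin1*, *Perp* and *Lypla1*, out of 10637 with a mean of at least 5 CPM. The root-mean-square difference of their log2 CPM, centred on each gene's mean over the 6 mice, was 0.0445 for *Plin2*, the lipid droplet coat gene, to 0.0916 for *Lypla1*. For the mean of the 3 vessel markers they were *Wdfy4*, *Was*, *Gramd4*, *Slc43a3* and *Cotl1*, with differences of 0.0452 to 0.0838. That mean differed by -0.94 between genotypes, where *Cd34* was at -2.93, *Plvap* at 0.46 and *Vwf* at -0.27. It is thus not the pattern of any single vessel marker. *Wdfy4* and *Was* are known as genes of blood cells.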

How the data were processed

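Total RNA from 6 livers, 3 SHMT2 fl/fl and 3 SHMT2 HKO, was sequenced as paired reads after NEBNext Ultra library preparation. Per the labels and methods, the authors trimmed reads with Trimmomatic 0.36, aligned them to GRCm38 with ERCC sequences by STAR 2.5.2b and counted unique hits with featureCounts of Subread 1.5.2. The use of strand is not given in the sources used here. The deposited values are raw counts per gene, without normalization. Samples were grouped by their titles, and the labels give no batch.

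The 92 ERCC RNAs were left out of library sizes. Genes were filtered with filterByExpr, scaled by TMM and tested by the robust quasi-likelihood F test of edgeR 4.0.16 in R 4.3.3 (two-sided), with Benjamini-Hochberg adjustment over 16089 genes and a threshold of 0.05. The study used limma-voom, which was run as an alternative (limma 3.58.1), as was DESeq2 1.42.0. Log2 CPM used a prior count of 2. Symbols, coordinates and exon lengths are from GENCODE M21 (GRCm38) and promoters from RefSeq. Exact permutation tests ran over the mice (scipy 1.17.1). Code was tested on simulated counts.

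The markers and lists were chosen with earlier results of these data known. From each list, up to 4 genes were named by rule, those with the 2 lowest and the 2 highest log2 fold changes among those called or else the most abundant, and the first of the list could be added. One gene that the rule named is not reported here. *Cdh5*, *Ly6a*, *Cav1*, *Col4a1*, *Col4a2*, *Gja4*, *Gpihbp1*, *Prox1* and *Ccl21a* were named after their values were seen. The labels number the replicates and say no more of their origin, so p-values measure the spread between these mice. Replicates of a genotype differed by more than sampling noise (chi-square per gene of 23.6 to 140). Counting intervals and floors cover counting error only.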

Additional observations from a re-analysis of the deposited data

How the results depend on the processing

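*Cd34* kept its direction and its call in all 15 alternatives, and *Clec4g* in 14 of 15. With ERCC scaling, 2866 of all genes passed in place of 4663, and 0 of the 7 sinusoidal markers did by edgeR. At an unadjusted p under 0.05 there were 2, *Clec4g* higher and *Stab1* lower. DESeq2 with its own size factors called 6 higher and limma-voom with TMM 5 higher. With ERCC scaling the log2 fold change of *Stab2* was -0.15 and that of *Plvap* -0.19. The ERCC share of counts ranged from 1.35% to 2.75% in SHMT2 HKO mice and from 1.42% to 1.84% in SHMT2 fl/fl mice. Standard errors were larger with ERCC scaling than with TMM, at 0.50 against 0.11 for *Stab2* and 0.51 against 0.29 for *Clec4g*. A call lost under ERCC scaling thus does not show that a difference is absent. Without TMM, 2 sinusoidal markers passed, *Clec4g* higher and *Stab1* lower, as did 2 vessel markers, both lower. The split of all calls was then 539 higher and 4923 lower, and 107 higher and 2759 lower with ERCC scaling, against 2012 and 2651. With upper-quartile normalization it was 1461 and 3039. The difference between vessel and sinusoidal markers was -0.67 with summed counts, which weigh abundant genes more. Relative to the pan-endothelial list, *Vwf* was at 0.032, on the other side of 0.

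With any mouse left out, the genes called ranged from 2426 without control mouse 3 to 5597 without SHMT2 HKO mouse 3, and were 2699, 2547 and 3023 without control mouse 1, mouse 2 or SHMT2 HKO mouse 2. The sinusoidal markers called ranged from 4 to 6 and the vessel markers from 1 to 2, the latter 2 without SHMT2 HKO mouse 1. The difference of vessel and sinusoidal markers ranged from -1.93 to -1.62, and the log2 difference of the ratio to *Stab2* from -3.85 to -3.30 for *Cd34*, from -0.96 to -0.69 for *Vwf* and from -0.30 to 0.10 for *Plvap*, which changed sign without SHMT2 HKO mouse 1.

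Same-numbered mice did not deviate together from their group means (correlations of -0.05, 0.01 and -0.08), so the numbers were not taken to pair the mice. With the replicate block 3584 genes passed, and 5 sinusoidal and 1 vessel markers, as without it. A mean of paired differences equals the difference of the group means, so pairing could not change the difference of vessel and sinusoidal markers from -1.76. The same holds for the ratios to *Stab2*, at -3.56 for *Cd34*, -0.12 for *Plvap* and -0.81 for *Vwf*. None of these values tests the pairing.

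Depth did not limit the markers, whose lowest count was 71, but genes near the floor such as *Aplnr* have uncertain folds.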
